A study of Homo sapiens with 16 samples.

Results

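The EGF family ligands were followed in MCF-10A cells, a nontransformed human breast epithelial line, over 45 h with CP724,714, a small molecule that inhibits the HER2 kinase. The members were the rows of the array whose symbol was AREG, EREG, HBEGF, TGFA, BTC, NRG1 or EGF, and every probe was kept separate. These were 10 probes for 7 symbols, of 20589 rows in all. There was 1 Illumina human Ref8v2 array for each of 16 time points, every 3 h from 0 to 45 h. The array of 0 h was from untreated cells and the other 15 arrays were from cells with 1 µM CP724,714 in the medium. All cultures were parallel plates of the same line in medium with 10 ng/ml EGF, 5 µg/ml insulin and 1 µg/ml hydrocortisone, so an EGF receptor ligand was supplied to every plate. The medium was also changed when treatment started, and cells kept without the inhibitor were not analysed here. The inhibitor, the fresh medium and the time in culture thus cannot be told apart. Each time point had a single array. The arrays of neighbouring time points were therefore grouped for the tests, and their spread stands in for replicate error although it also holds any change within a group.

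EGF family ligands are made as membrane-bound precursors, and proteases of the ADAM group cut them to release the soluble growth factor. EGF, TGFA and AREG bind the EGF receptor, HBEGF, BTC and EREG bind the EGF receptor and ERBB4, NRG1 and NRG2 bind ERBB3 and ERBB4, and NRG3 and NRG4 bind ERBB4. ERBB2, also called HER2, has no known ligand and signals as the partner of the other receptors. In mammary epithelial cells several of these ligands are made by the cells themselves and act as autocrine growth factors, and several of their genes are known targets of the ERK pathway downstream of the same receptors.

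The arrays showed TGFA and HBEGF transcripts throughout, NRG1 transcripts on every array of the first 30 h, and BTC near the limit of detection. The single probes of AREG, EREG and EGF gave hardly any signal, which does not show that these transcripts were absent. Between 0 and 3 h and 6 and 9 h the ligands moved in different directions: TGFA rose 1.57-fold (n = 2 arrays against 2), BTC rose at least 1.36-fold and HBEGF fell 2.17-fold. The fall of HBEGF passed its test in all 25 other settings of the analysis. The rises of TGFA and BTC did not pass without the array of 0 h or of 9 h, nor with the 4 compared arrays alone. The NRG1 probe that was detected fell at least 2.0-fold from the first 4 to the last 4 arrays. Of the 4 ligand probes that could be tested, 3 changed over time in limma's F-test on a spline of time, against 54.6% of all 11957 tested probes. A change over time was thus common on these arrays, and the share among the ligands rests on 4 probes.

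The windows before the annotated start of the 3 ligand genes that changed between 0 and 3 h and 6 and 9 h are shown here, to set the genes side by side. They run from 250 bases before to 50 bases after the transcript start in RefSeq (GRCh38.p14), 5′ to 3′ on the strand of the gene, and each lies on the minus strand, at chr2:70553777-70554076 for TGFA (the first of the listed windows of this gene), chr5:140346554-140346853 for HBEGF and chr4:74794474-74794773 for BTC. Capitals mark the matches of a motif search.
TGFA: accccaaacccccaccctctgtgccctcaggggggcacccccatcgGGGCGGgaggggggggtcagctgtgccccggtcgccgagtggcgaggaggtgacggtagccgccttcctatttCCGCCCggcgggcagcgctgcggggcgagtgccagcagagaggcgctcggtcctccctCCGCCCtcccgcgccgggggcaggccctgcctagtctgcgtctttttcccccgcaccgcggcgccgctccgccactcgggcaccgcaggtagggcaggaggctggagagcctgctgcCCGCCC
HBEGF: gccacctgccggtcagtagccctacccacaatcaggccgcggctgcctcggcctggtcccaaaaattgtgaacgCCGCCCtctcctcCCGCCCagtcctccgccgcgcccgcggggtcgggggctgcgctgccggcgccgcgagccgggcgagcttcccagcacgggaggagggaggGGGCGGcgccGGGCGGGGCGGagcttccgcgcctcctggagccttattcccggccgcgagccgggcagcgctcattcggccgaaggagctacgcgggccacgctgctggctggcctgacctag
BTC: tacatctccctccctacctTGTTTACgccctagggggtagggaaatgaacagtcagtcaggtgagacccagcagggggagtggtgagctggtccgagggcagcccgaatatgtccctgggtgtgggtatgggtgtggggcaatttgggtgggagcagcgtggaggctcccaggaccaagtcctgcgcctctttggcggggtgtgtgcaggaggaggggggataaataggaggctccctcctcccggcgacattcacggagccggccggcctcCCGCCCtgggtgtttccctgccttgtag
The search covered both strands for the AP-1 motif TGANTCA, the cyclic AMP response element TGACGTCA, the TATA box TATAAA, the GC box GGGCGG, the box CCAAT, the forkhead motif GTAAACA, the E-box CACGTG and the CArG box. The TGFA window held 4 GC boxes and the HBEGF window 5, of which a pair share 1 base, and neither held another motif of the search. G and C made up 75.3% of the TGFA window, 75.0% of that of HBEGF and 63.0% of that of BTC. The median over all windows of this length was 58.7%. The other listed window of TGFA, at chr2:70553397-70553696, held no match and is not printed. The BTC window held 1 GC box and 1 forkhead match, which begins at position -231 from the start. Of 35116 windows of this length in RefSeq, 45.0% held a GC box, 3.42% the forkhead motif, 7.71% the AP-1 motif, 1.85% the cyclic AMP response element, 11.5% the TATA box, 34.6% CCAAT, 7.26% the E-box and 1.29% the CArG box. These matches describe the letters of the windows, and no binding was measured. Windows were listed for 6 of the 7 ligand genes, all but NRG1.

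The array medians lay between 210 and 254 intensity units and 50.1 to 52.9% of rows were above background on an array, which means that the detection p-value against the negative control beads was under 0.05. Since the negative controls themselves pass this level in 5% of cases, a probe above background on 1 array only is at the level that controls reach. The basal epithelial genes KRT5, KRT17, KRT6A, SFN, CDH1 and 1 of 2 probes of ITGB4 were above background on all 16 arrays, TP63 on 10, KRT14 on 1, and the LAMB3 rows on 4 and 0. The LAMB3 row with 0 combines probes, and its intensity was 1658 to 4132, far above the array medians. Its detection p therefore does not show that the transcript was absent. Of the luminal genes KRT8, both rows of KRT18, KRT19 and FOXA1 were above background on all 16 arrays and GATA3 on 15, while ESR1 was never above. Of 8 probes for fibroblast genes 6 were never above background, COL1A1, COL1A2, COL3A1, PDGFRB and LUM among them, and the sum of the 8 intensities was 1349 to 1617 over the arrays. The probes of DCN, a further fibroblast gene, were above background on 5, 2 and 0 arrays. Of the leukocyte genes CD3E and CD79A were never above background, and the probes of PTPRC were above on 5, 2 and 0 arrays. The sum of the 6 leukocyte probes was 1133 to 1309. CD14 was above on 12 arrays, however, and rose by 1.75 on the log2 scale from 0 to 9 h to 36 to 45 h. Of the endothelial genes CDH5 was never above background, KDR and PECAM1 were above on 15 arrays each and the sum of the 3 probes was 653 to 806, and PECAM1 rose by 0.84 over the same span. Epithelial genes changed over that span as well. TP63, listed as TP73L, rose by 1.73, 1 probe of ITGB4 by 1.24, GATA3 by 0.86 and KRT17 by 0.69, while SFN fell by 1.14, KRT6A by 1.10 and KRT19 by 0.42. The rows of KRT18 went in opposite directions, -0.66 and 0.26, the latter in a row that combines probes. The part of any of these genes in the late fall of NRG1 was not tested.

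TGFA, transforming growth factor alpha, is a ligand of the EGF receptor that epithelial cells make in culture. Its probe (ILMN_30018) was above background on all 16 arrays. Its normalized log2 intensity was 8.20 at 0 h, 8.72 at 3 h, 9.07 at 6 h and 9.16 at 9 h. It was 8.74, 8.77, 8.65 and 8.64 from 12 to 21 h, 8.72, 8.64, 8.34 and 8.32 from 24 to 33 h, and 8.60, 8.48, 8.48 and 8.41 from 36 to 45 h. The untreated array was thus the lowest of the series, and each of the next 3 arrays was higher than the one before it. From 12 h on all values lay between those of 0 h and of 6 h. The highest array was 1.93-fold the lowest, and on the deposited scale TGFA went from 455 to 739 intensity units between 0 and 9 h and was 450 at 45 h.

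TGFA was higher on the 6 and 9 h arrays than on the 0 and 3 h arrays. The difference was 0.65 on the log2 scale (SE 0.17, adjusted p = 0.0071), larger in size than for 86.5% of tested probes. The call was lost without the array of 0 h, where the difference fell to 0.39 (adjusted p = 0.15), without that of 9 h (adjusted p = 0.060), and in a fit of the 4 compared arrays alone (adjusted p = 0.13). The spline test called TGFA (adjusted p = 0.0417), but not in 11 of 26 other settings. The 36 to 45 h arrays were lower than the 0 to 9 h arrays by 0.30, with an SE of 0.16 and an adjusted p of 0.18, and this difference passed the test only without the array of 0 h (-0.49, adjusted p = 0.0057). No later step between groups of TGFA arrays passed the test.

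**Figure D1:**
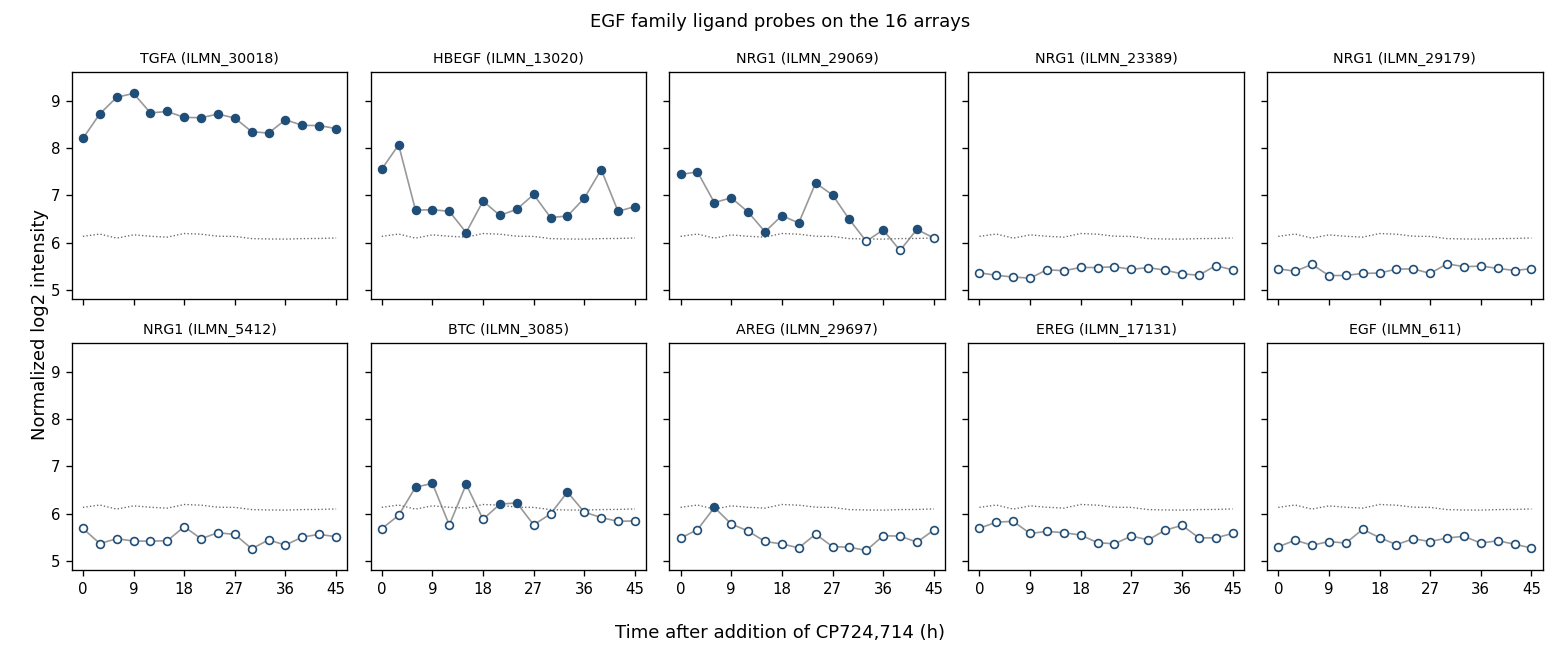
Normalized log2 intensity of the 10 EGF family ligand probes (y axis) against hours after addition of CP724,714 (x axis, 0 h untreated), 1 array per point. Filled points are above background (detection p under 0.05), open points are not, and the dotted line is the lowest single-probe value above background on each array. TGFA and HBEGF are filled on all 16 arrays, NRG1 (ILMN_29069) on 13, BTC on 6, AREG on 1 and the other 5 probes on none.

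HBEGF, heparin-binding EGF-like growth factor, is an immediate early gene in many epithelial cells and a ligand of the EGF receptor and ERBB4. Its probe (ILMN_13020) was also above background on all 16 arrays, with a highest detection p of 0.0410. The log2 intensity was 7.55 at 0 h, 8.07 at 3 h, 6.69 at 6 h and 6.70 at 9 h. It was 6.66, 6.21, 6.88 and 6.58 from 12 to 21 h, 6.71, 7.02, 6.53 and 6.56 from 24 to 33 h, and 6.94, 7.54, 6.66 and 6.76 from 36 to 45 h. HBEGF was highest 3 h after the inhibitor was added and dropped by 1.38 between the 3 and the 6 h arrays, a 2.60-fold step. After that 1 array stood out, that of 39 h, whose value was close to that of the untreated array and 1.84-fold above the next array.

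The 6 and 9 h arrays were lower in HBEGF than the 0 and 3 h arrays by 1.12 on the log2 scale (SE 0.26, adjusted p = 0.0038), and 96.8% of tested probes changed less. This call held in all 25 other settings, with adjusted p between 0.0014 and 0.047, and the size of the fall was 0.54 without background correction. The highest array was 3.61-fold the lowest, 2.53-fold without the array of 3 h and 1.85-fold without background correction. The spline test called HBEGF (adjusted p = 0.0205), but not without the array of 0 h (adjusted p = 0.065), 3 h (0.11) or 15 h (0.0502), nor with 5 degrees of freedom (0.055) or a straight line in time (0.50). The lower level from 12 to 21 h than from 0 to 9 h, -0.67 (SE 0.27), had an adjusted p of 0.069. The last 4 arrays differed from the first 4 by -0.27 (SE 0.27, adjusted p = 0.47).

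BTC, betacellulin, is a ligand of the EGF receptor and ERBB4. Its probe (ILMN_3085) was above background on 6 arrays, at 6, 9, 15, 21, 24 and 33 h. The log2 intensity was 5.68 and 5.96 at 0 and 3 h, not above background, and 6.56 and 6.64 at 6 and 9 h. It was 5.76, 6.62, 5.88 and 6.20 from 12 to 21 h, 6.23, 5.76, 5.99 and 6.45 from 24 to 33 h, and 6.03, 5.92, 5.84 and 5.85 from 36 to 45 h. After 9 h arrays above background and arrays not above it were interspersed, and from 36 h on none was above.

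The 6 and 9 h arrays were higher in BTC than those of 0 and 3 h by 0.78 on the log2 scale (SE 0.24, adjusted p = 0.023), which is at least 1.36-fold against the lowest level that counts as above background. This bound allows for the arrays below that level and not for the spread between arrays. The call was lost without the array of 0 h (adjusted p = 0.16), 6 h (0.060) or 9 h (0.12) and with the 4 compared arrays alone (0.064). BTC did not pass the spline test (adjusted p = 0.46). Between the 0 and 3 h and the 6 and 9 h arrays 13.5% of all tested probes rose and 11.1% fell, and of the 4 tested ligand probes 2 rose and 1 fell. The fourth, NRG1, had a change of -0.57 (SE 0.28, adjusted p = 0.15).

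AREG, amphiregulin, and EREG, epiregulin, are the ligands that lie beside BTC on chromosome 4, where the protein-coding genes follow each other in the order EPGN, EREG, AREG, BTC in GRCh38.p14. AREG (ILMN_29697) had intensities of 189, 201, 244 and 218 at 0, 3, 6 and 9 h and of 148 to 199 from 12 h on, and was above background at 6 h only, with a detection p of 0.0438. EREG (ILMN_17131) lay between 157 and 220 and was never above background, its lowest detection p being 0.133 at 6 h. Both probes had their highest value at 6 h, on the deposited and on the normalized scale. BTC and TGFA had theirs at 9 h, so 4 of 10 ligand probes were highest at 6 or 9 h on the normalized scale, as were 15.2% of all rows. On the deposited scale these were 5 of 10 ligand probes and 24.5% of all rows. AREG and EREG lay near the level of the negative controls, where the time of the highest value carries little weight. No test was made on AREG and EREG, since a probe had to be above background on 3 arrays.

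EGF itself (ILMN_611) was never above background, with intensities of 141 to 203 and a lowest detection p of 0.282 at 15 h. The soluble protein was in the medium of every plate, and the array measured the transcript of the cells alone.

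NRG1, neuregulin 1, is a ligand of ERBB3 and ERBB4 with many isoforms, and the array held 4 probes for it. The probes ILMN_23389, ILMN_29179 and ILMN_5412 were never above background, with lowest detection p-values of 0.446, 0.403 and 0.227. ILMN_29069 was above background on 13 arrays, all but those of 33, 39 and 45 h. Which transcripts each probe detects was not given in the sources used here, so the NRG1 values below are those of 1 probe out of 4.

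For ILMN_29069 the log2 intensity was 7.44, 7.50, 6.85 and 6.95 from 0 to 9 h and 6.65, 6.23, 6.57 and 6.42 from 12 to 21 h. It was 7.26, 7.01, 6.49 and 6.03 from 24 to 33 h, and 6.27, 5.83, 6.28 and 6.10 from 36 to 45 h. The level went down from 3 to 15 h and again from 24 to 39 h, though not at every array, with a rise of 0.85 between the arrays of 21 and 24 h. All 4 of the last arrays were below all 4 of the first. The highest array, at 3 h, was at least 2.66-fold the lowest.

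Relative to the first 4 arrays, the last 4 were lower in NRG1 by 1.06 log2 units (SE 0.22, adjusted p = 0.0014), a larger size than for 97.2% of tested probes. As 2 of the last 4 arrays were not above background, the fold is a bound, at least 2.0-fold with the background correction used. The call held in all 24 other settings in which the probe was tested, with adjusted p between 0.00041 and 0.0071 and a change of -0.47 without background correction. From the first to the last 4 arrays 16.2% of all tested probes rose and 15% fell, and of the 4 tested ligand probes NRG1 fell and none rose. With median scaling in place of quantile normalization the split of all probes was 23.4% higher and 8.61% lower, and the ligand counts did not change.

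NRG1 was lower from 12 to 21 h than from 0 to 9 h by 0.72 (SE 0.22, adjusted p = 0.021), a call lost without the array of 0, 3 or 15 h. In this step 15.1% of all probes rose and 14.4% fell (23.5% and 8.61% with median scaling), and no other ligand passed the test. From 24 to 33 h the level was 0.23 above that of 12 to 21 h (SE 0.22, adjusted p = 1.00). None of the 4 ligands was called in that step by limma and none had an unadjusted p under 0.05, and among all tested probes 0% rose and 0.0251% fell. From 24 to 33 h to 36 to 45 h NRG1 fell by 0.58 (SE 0.22, adjusted p = 0.0490), a call lost in 15 of 24 other settings. There 19.3% of all tested probes rose and 18.7% fell (14.4% and 24.5% with median scaling). The spline test called NRG1 (adjusted p = 0.0026) in all 25 other settings that tested it.

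**Figure D2:**
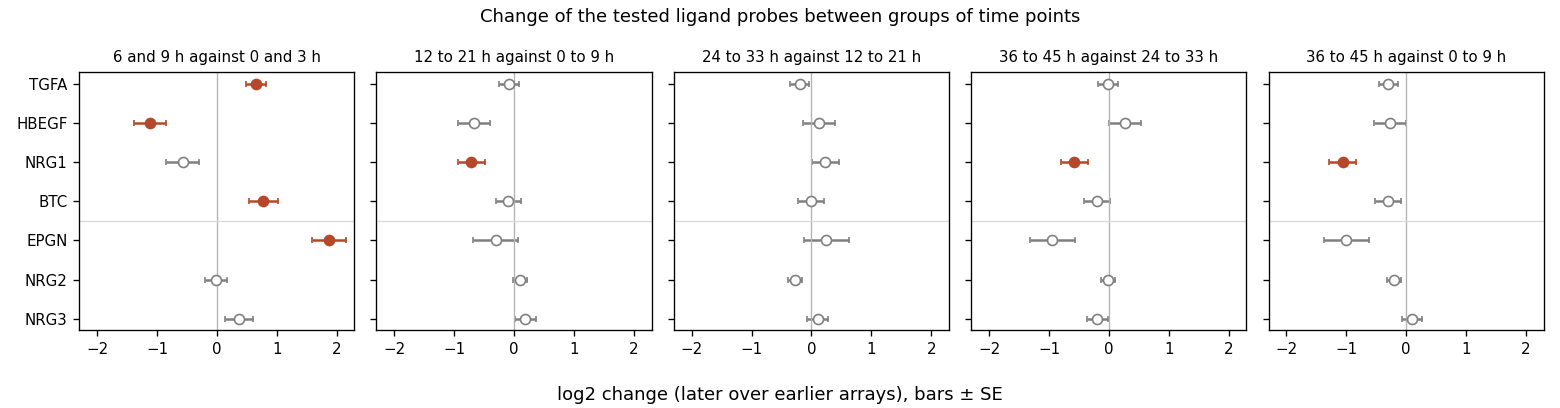
Log2 change (x axis) of each tested ligand probe between groups of arrays, 1 panel per comparison, with bars of 1 SE from limma. Filled red points passed an adjusted p of 0.05 over all tested probes and open points did not. At 6 and 9 h TGFA (0.65), BTC (0.78) and EPGN (1.87) lie to the right of 0 and HBEGF (-1.12) to the left, and NRG1 alone is filled in the last panel (-1.06).

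Epigen, the product of EPGN, is a further ligand of the EGF receptor, and it and NRG2, NRG3 and NRG4 were on the array with 1 probe each. EPGN (ILMN_28280) was above background on 14 arrays, all but those of 0 and 39 h. Its log2 intensity was 6.00, 6.65, 7.95 and 8.44 from 0 to 9 h and 7.05, 7.44, 6.80 and 6.55 from 12 to 21 h. It was 7.30, 7.51, 6.96 and 7.03 from 24 to 33 h, and 6.46, 5.91, 6.21 and 6.45 from 36 to 45 h. The array of 9 h was the highest, as for TGFA and BTC, and at least 5.13-fold that of 39 h.

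EPGN was higher at 6 and 9 h than at 0 and 3 h by 1.87 (SE 0.28, adjusted p = 7.3e-05), more than the size of change of 99.6% of tested probes. With 1 of the earlier arrays not above background this is at least 3.51-fold, and the call held in all 24 other settings that tested EPGN. It missed the threshold in the spline test (adjusted p = 0.0615) and from the first to the last 4 arrays (-1.0, SE 0.38, adjusted p = 0.051). NRG2 was above background on 9 arrays and passed the spline test (adjusted p = 0.0212), but not in 5 of 24 other settings, and no comparison of array groups called it. NRG3 was above on 14 arrays with no call, and NRG4 was never above background.

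**Figure D3:**
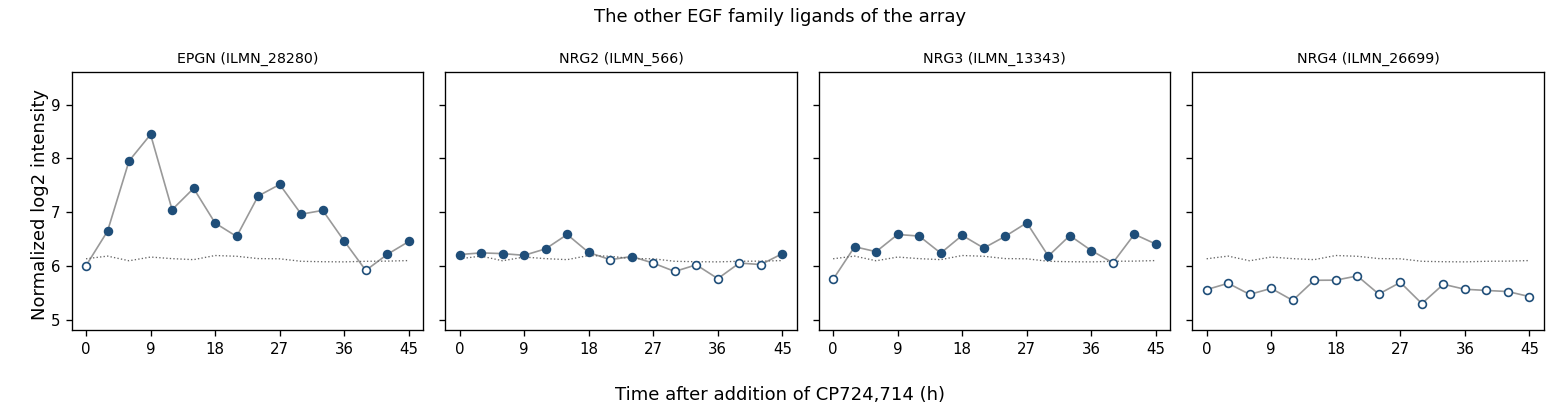
Normalized log2 intensity (y axis) of EPGN, NRG2, NRG3 and NRG4 against hours after addition of CP724,714 (x axis), 1 array per point. Filled points are above background, open points are not, and the dotted line is the lowest single-probe value above background. EPGN goes from 6.00 at 0 h to 8.44 at 9 h and 5.91 at 39 h, and NRG4 is open throughout.

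Across the 16 arrays the courses of TGFA and EPGN had a Pearson r of 0.78, those of HBEGF and TGFA of -0.19, of HBEGF and EPGN of -0.45, and of HBEGF and the NRG1 probe of 0.44. These are descriptions over arrays that all probes share, with no test. Among 4249 probes that were above background on at least 12 arrays and ranged over at least 1 log2 unit, the courses most like that of TGFA were those of THBS1 (r = 0.92), DOCK5 (0.90), GLIPR1 (0.90), F3 (0.87) and FLJ20280 (0.87). THBS1, which encodes thrombospondin 1, was highest at 6 h and the other 4 at 9 h, and all 5 were lowest in the untreated array, as TGFA was. F3, the gene of tissue factor, ranged 5.17-fold over the arrays. The courses most like that of HBEGF were those of KBTBD2 (r = 0.86), LIF (0.86), BTN2A1 (0.83), AXUD1 (0.82) and LOC147808 (0.82). Each of these 5 was highest at 3 h, and LIF, the gene of leukemia inhibitory factor, ranged 4.0-fold. For the NRG1 probe they were ROBO4 (r = 0.88), SLC25A25 (0.87), APOC1 (0.85), XBP1 (0.85) and HERC6 (0.85), each highest at 0 or 3 h and lowest between 36 and 45 h. XBP1, a transcription factor of the unfolded protein response, ranged 3.41-fold. Of each 5 genes, 4 or 5 stayed among the first 5 with no background correction, median scaling or cyclic loess.

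The receptors of these ligands had 9 probes, of which 6 were tested and 4 passed the spline test, beside 54.6% of all tested probes. Between 0 and 3 h and 6 and 9 h, 1 of 3 tested probes of EGFR rose (ILMN_15615, 0.34, SE 0.10, adjusted p = 0.020) and 1 of 2 of ERBB3 fell (ILMN_8157, -0.75, SE 0.23, adjusted p = 0.020). Both calls were lost in the fit of the 4 compared arrays alone and without the array of 9 h, that of EGFR also without 3 or 6 h and that of ERBB3 without 0 h. From the first to the last 4 arrays both rows of ERBB3, a neuregulin receptor, rose, by 1.45 (SE 0.21) and 0.63 (SE 0.15), over the span in which NRG1 fell. The second of these rows, ILMN_6289, combines probes. Among all tested probes 16.2% rose and 15% fell over that span. EGFR probes disagreed there, since ILMN_2682 rose by 1.00 and ILMN_15848 fell by 0.72. ERBB2 had 1 row above background on 11 arrays, which combines probes and had no call, and 1 probe on none. The intensity of the combined row was 214 to 264, and its detection p did not follow it. That p was 0.14 at 3 h, where the intensity was 264, and 0.0077 at 42 h, where it was 241. ERBB4 was never above background.

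The proteases that release the ligands and their regulators had 17 probes for 14 genes, of which 14 were tested and 5 passed the spline test, which 54.6% of all tested probes passed. At 6 and 9 h 2 had risen and none had fallen, where 13.5% of all tested probes rose and 11.1% fell. ADAM19, a metalloprotease known for its part in neuregulin processing, rose by 1.75 in ILMN_12727 (SE 0.29, adjusted p = 0.00022). Its other row, ILMN_12490, combines probes, was never above background (intensity 147 to 195) and was not tested. RHBDF2, which encodes iRhom2, a partner of ADAM17, rose by 1.15 in ILMN_14714 (SE 0.13, adjusted p = 2.85e-06) while ILMN_23030 changed by -0.02 (SE 0.17, adjusted p = 0.95). Both rises held in all 25 other settings. ADAM17, the main sheddase of TGFA, HBEGF and AREG, changed by -0.30 (SE 0.17, adjusted p = 0.20), and ADAM10, which cuts EGF and BTC, by 0.04 (SE 0.26, adjusted p = 0.94). From the first to the last 4 arrays ADAM15 (0.26, adjusted p = 0.0020) and NRDC, listed as NRD1 (0.20, adjusted p = 0.0484), rose and none fell. Over that span 16.2% of all tested probes rose and 15% fell (23.4% and 8.61% with median scaling). The ADAM15 call held in all 25 other settings and the NRDC call was lost in 16 of them.

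Of 17 probes for 16 genes that are known to follow ERK activity all were tested and 13 passed the spline test, against 54.6% of all tested probes. At 6 and 9 h 4 had fallen and 1 had risen. FOS fell by 1.95 (SE 0.38, adjusted p = 0.00083), with a change of -0.89 without the array of 0 h and -3.01 without that of 3 h. PHLDA1 fell by 0.84 (SE 0.14, adjusted p = 0.00031), IER3 by 0.46 and EGR1 by 0.39. The IER3 call was lost without the array of 0 h, and the EGR1 call without that of 0 h or of 9 h. MYC rose by 0.90 (SE 0.20, adjusted p = 0.0022), and by 0.38 without the array of 0 h. In the fit of the 4 compared arrays alone only PHLDA1 of these 5 was called. The feedback genes DUSP6, SPRY2, SPRY4 and DUSP4 had no early call. That comparison pools the arrays of 0 and 3 h, so it does not show a change between them. DUSP6 was lowest at 0 h (5.73 on the log2 scale, not above background) and highest at 3 h (7.81). From the first to the last 4 arrays 4 of the 17 probes rose and 5 fell, where 16.2% of all tested probes rose and 15% fell (23.4% and 8.61% with median scaling), with PHLDA1 (-1.72) and FOSL1 (-1.77) the lowest and ERRFI1, an inhibitor of the EGF receptor, the highest (1.10). The 2 probes of DUSP4 went in opposite directions, 0.41 and -0.64. From 0 to 9 h to 12 to 21 h 3 of the 17 probes rose, ETV4 (0.83) and ETV5 (0.76) the most, and 6 fell. Of all tested probes 15.1% rose and 14.4% fell in that step. ETV4 (-0.45) and ETV5 (-0.71) fell again from 24 to 33 h to 36 to 45 h. In this later step 3 of the 17 probes rose and 4 fell, beside 19.3% and 18.7% of all tested probes. The ETV5 row combines probes. The receptor, protease and ERK lists are short and were read beside the 13.5% of all probes that rose and 11.1% that fell by 6 and 9 h.

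**Figure D4:**
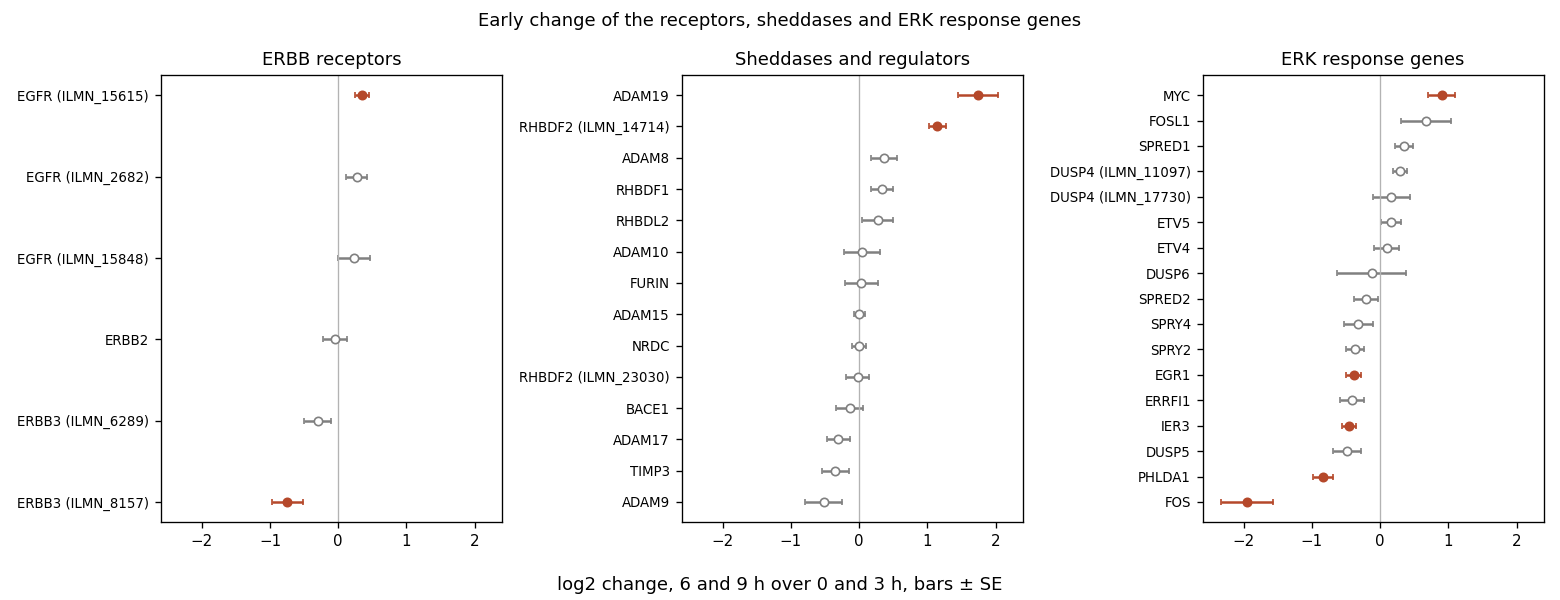
Log2 change from 0 and 3 h to 6 and 9 h (x axis, bars of 1 SE from limma) of the tested probes of the ERBB receptors, the ligand proteases with their regulators and the ERK response genes, sorted within each panel. Filled red points passed an adjusted p of 0.05 over all tested probes. ADAM19 (1.75) and RHBDF2 (1.15) lie apart from the other proteases, and FOS (-1.95) from the other ERK response genes.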

How the data were processed

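RNA of MCF-10A cells from 16 parallel cultures was measured on Illumina human Ref8v2 arrays, 1 per time point. The authors deposited intensity values on a linear scale, not normalized between arrays, and a detection p-value per row and array. Per the labels and methods the authors extracted total RNA, labelled it with biotin and quantile normalized the arrays for their own comparisons, but the summary software and any background correction are not given in the sources used here. Of 20589 rows, 19092 had detection p-values that were whole multiples of 1 in 708 within 0.001 on every array and were taken as single probes, and all ligand rows were among them. The combined rows, 1497, were left out of the background estimate only. The number of arrays limits the precision, and labels name no separate cultures as replicates.

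With limma 3.58.1 in R 4.3.3, intensities were corrected by normexp from the detection p-values (offset 16), then quantile normalized and put on the log2 scale. The offset compresses dim probes and so understates their change. A probe was tested where its detection p was under 0.05 on 3 arrays or more, 11957 in all. Tests were the moderated F-test of limma for a natural spline of time with 3 degrees of freedom, and contrasts of groups of arrays (0 to 9, 12 to 21, 24 to 33 and 36 to 45 h in a fit with 12 residual degrees of freedom, and 0 and 3 against 6 and 9 h in a fit with 11), with the prior variance fitted as a trend on intensity, and Benjamini-Hochberg adjustment over all tested probes. Calls were made under 0.05. Where the dimmer group held arrays not above background, the fold is given as a bound against the lowest single-probe value above background there, or the own value if higher. Such a bound does not take in the spread between arrays or the other settings. The scripts were tested on simulated data.

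Genes named are all probes of the ligands and of fixed lists (other ligands, receptors, proteases, ERK response genes, cell type markers), and the 5 probes with the highest Pearson r to each ligand probe above background on 12 or more arrays. The members and lists were chosen with earlier results of these data known. Symbols are those of the file, with older ones matched through RefSeq names. Other settings were median scaling, cyclic loess, an offset of 50, no background correction, no intensity trend, other filters, other curves, the compared arrays alone, and each array left out in turn. Tables used Python 3.11.15 with pandas 2.3.3 and figures matplotlib 3.10.9.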

Additional observations from a re-analysis of the deposited data

How the results depend on the processing

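No ligand call changed direction in the settings tried. Of the 4 tested ligand probes, 3 passed the spline test, and 1 did with a straight line in time and 1 to 3 with 1 array left out. The 3 calls of 6 and 9 h against 0 and 3 h became 1 (HBEGF) with only the compared arrays and 1 to 3 with 1 array left out, the lowest count being reached without 0 h or without 9 h. The 1 call of 12 to 21 h against 0 to 9 h became 2 without the filter and 0 where probes had to be above background on all 16 arrays, and 0 to 2 with 1 array left out. The 1 call of 36 to 45 h against 24 to 33 h became 0 without background correction, with an offset of 50, without the filter, without the intensity trend and with the filter on all 16 arrays, and 0 to 1 with 1 array left out. For the last 4 arrays against the first 4 the 1 call became 0 with the filter on all 16 arrays, since NRG1 is then not tested, and 1 to 2 with 1 array left out (2 without 0 h, which adds TGFA). With that filter only TGFA and HBEGF are tested. Apart from these filters, the cause of a lost call was not tested. Without background correction the ligands' changes shrink, as in the values given for HBEGF and NRG1. Median scaling moved the share of rises among all calls of 6 and 9 h against 0 and 3 h from 54.9% to 65.1%. A chip as a block was planned and was not run, since the headers used here name no chip. No paired analysis was possible because each time point has 1 array. Signal near background limits AREG, EREG, EGF, BTC and most NRG1 probes.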
